A study of Drosophila melanogaster with 48 samples.

Results

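The 8 genes described here move ions across glial membranes or join neighbouring glial cells. Atpalpha (FBgn0002921) and nrv1 (FBgn0015776) encode parts of the sodium pump, Ncc69 (FBgn0036279) and kcc (FBgn0261794) encode cation-chloride cotransporters, Irk2 (FBgn0039081) and Irk3 (FBgn0032706) encode inward rectifier potassium channels, and ogre (FBgn0004646) and Inx2 (FBgn0027108) encode innexins, the gap junction proteins of insects. They were chosen by name and identifier from the 17558 gene rows of the count tables. All 8 passed the filter of 20 counts per library on average that left 9392 genes for the tests.

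The counts came from adult fly heads in which the tagged ribosomal protein EGFP-L10a was expressed under eaat1-Gal4, with elav-Gal80 to keep Gal4 inactive in neurons. By the study's own account this driver is mainly astrocytic but also reaches some cortex glia. Ribosomes were immunoprecipitated with their bound RNA (TRAP) from pools of heads frozen every 4 h from 0 to 44 h in constant darkness (DD), after entrainment to a light-dark cycle. Every library has this genotype, so the comparisons are between hours, between the second and the first day in DD, and between replicate 2 and replicate 1, which came from independent crosses. There were 12 libraries per replicate, 1 for each time point, and 24 in all. The age of the flies is not given in the sources used here.

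Glial cells take up the potassium that neurons release and set the ionic make-up of the fluid around them. The sodium pump exchanges sodium for potassium at the expense of ATP and so feeds the gradients that cotransporters use. Ncc69 carries sodium, potassium and chloride into cells, whereas kcc carries potassium and chloride out, and in flies both have been tied to seizure susceptibility. Inward rectifier channels pass potassium more readily into the cell than out of it. Innexins form channels between cells through which ions and small molecules spread in a glial network, and ogre and Inx2 can build such channels together. Ion handling and gap junctions of fly glia have been linked to circadian locomotor behavior and to sleep.

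On the Release 6 assembly, Atpalpha lies on chromosome 3R (20948714 to 20976239), nrv1 on 2L (6778555 to 6786861), Ncc69 on 3L (12368646 to 12391444) and kcc on 2R (23907654 to 23925066). Irk2 lies on 3R (23513617 to 23519445) and Irk3 on 2L (18711071 to 18713748). Both innexin genes are on the X chromosome, ogre at 6973620 to 6991318 and Inx2 at 6998672 to 7004151, with 7353 bases between them and Inx7, another innexin gene, in that gap. The gene spans of Irk3 (with Grip71), ogre (with bou and lncRNA:CR44084), Ncc69 (with lncRNA:CR45824) and kcc (with asRNA:CR44806) overlap other annotated genes. Reads tallied as ambiguous between genes are not in the counts, the strand setting of the counting is not given in the sources used here, and how the overlaps touched the counts of these 4 members was not tested. The other 4 members overlap no annotated gene.

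Libraries held between 6371034 and 37267216 counts on genes. Members averaged from 175 counts per library (Inx2) to 1833 (Irk2), and the lowest count of any member in any library was 43, for Irk3. Values below are CPM, a gene's counts scaled to a fixed library total after TMM scaling. They are shares of the ribosome-bound RNA, so fewer cells and less RNA per cell cannot be told apart. Transcript lengths were not used, so levels are set against each other within a gene only. The 28 h library of replicate 2 stands apart, with 49.6% of its counts on 10 genes, and the deposited tables of the 16 h library of replicate 1 are numbered like those of replicate 2, while the other 11 libraries of replicate 1 share other numbers. What the numbers stand for is not given in the sources used here. The member values of these 2 libraries are given where a result rests on them. In the sample titles, replicate 1 carries the letter b at 4, 12, 20 and 28 h, d and e at 16 h, and a at the other hours. Replicate 2 carries c and g throughout. The meaning of the letters is not given, so letter and hour cannot be told apart in replicate 1.

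Atpalpha, the catalytic subunit of the sodium pump, had 85.1 to 176 CPM in the libraries of replicate 2 (median 120, n = 12) and 43.6 to 106 CPM in those of replicate 1 (median 63.1, n = 12). Replicate 2 was above replicate 1 at all 12 time points, and 9 of its 12 libraries exceeded every library of replicate 1. Within replicate 2 the highest libraries were those at 44 h (176 CPM), 16 h (172 CPM) and 32 h (161 CPM), which are not 24 h apart. In replicate 1 the highest was the 16 h library (106 CPM) and the lowest that at 36 h (43.6 CPM). Only the 16 h libraries were among the highest 2 of both replicates.

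nrv1, which encodes a regulatory beta subunit of the pump, had 19.8 to 48.3 CPM in replicate 2 (median 38.0) and 18.8 to 35.96 CPM in replicate 1 (median 27.1). The ranges overlapped over most of their length, yet 7 of 12 replicate 2 libraries were above every library of replicate 1. In replicate 2 nrv1 stood at 42.1 to 48.3 CPM from 16 to 28 h and at 19.8 CPM at 36 h. At 8 and 12 h replicate 2 had 33.5 and 28.7 CPM, and replicate 1 had 35.0 and 35.96 CPM, its 2 highest values.

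Ncc69, the inward cotransporter, had 13.3 to 22.4 CPM in replicate 2 (median 15.98) and 10.8 to 28.4 CPM in replicate 1 (median 16.2), so the range of replicate 2 lay inside that of replicate 1. The 20 h time point was the most divided, with 13.3 CPM in replicate 2 and 28.4 CPM in replicate 1, while at 28 h both were high, with 22.1 CPM in replicate 2 and 24.6 CPM in replicate 1. kcc, the outward cotransporter, had 20.8 to 35.7 CPM in replicate 2 (median 26.1) and 6.12 to 32.8 CPM in replicate 1 (median 18.9). Its highest library was the one at 16 h in both replicates, and at 36 h replicate 2 had 25.3 CPM and replicate 1 had 6.12 CPM, the lowest value of all.

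Irk2 had 74.3 to 138 CPM in replicate 2 (median 108) and 68.9 to 152 CPM in replicate 1 (median 91.5), with full overlap. It was low in both replicates at 24 h (77.2 and 71.0 CPM in replicates 2 and 1) and at 44 h (74.3 and 75.4 CPM). Irk3 had 8.59 to 17.5 CPM in replicate 2 (median 12.8) and 5.95 to 16.7 CPM in replicate 1 (median 10.7). Both replicates had their highest Irk3 value at 12 h and their lowest at 24 h, a ratio of 2.35 between the means of these time points. These extremes did not recur on the other day, where the means were 12.3 CPM at 36 h and 12.7 CPM at 0 h.

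The innexin ogre had 14.5 to 45.1 CPM in replicate 2 (median 29.9) and 9.72 to 23.6 CPM in replicate 1 (median 15.2). Of the 12 replicate 2 libraries, 8 were above every library of replicate 1. In replicate 2 ogre was highest from 16 to 24 h, at 0 h and at 44 h (33.5 to 45.1 CPM) and lowest at 36 h (14.5 CPM). In replicate 1 it stayed between 11.9 and 17.4 CPM except at 0 h (9.72 CPM) and 4 h (23.6 CPM).

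Inx2 had 6.67 to 20.9 CPM in replicate 2 (median 11.02) and 4.85 to 12.6 CPM in replicate 1 (median 8.01). Its replicate 2 course was like that of ogre, with 14.9 and 18.8 CPM at 16 and 20 h, 20.9 CPM at 44 h, and lows of 7.25 CPM at 12 h and 6.67 CPM at 36 h. In replicate 1 the 12 h library held the highest value (12.6 CPM), an hour that was among the lowest 2 of replicate 2. Over all 24 libraries the highest value was 5.84 times the lowest for kcc, 4.64 times for ogre, 4.30 times for Inx2 and 4.04 times for Atpalpha, and the other 4 lay between 2.20 (Irk2) and 2.94 (Irk3).

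**Figure D1:**
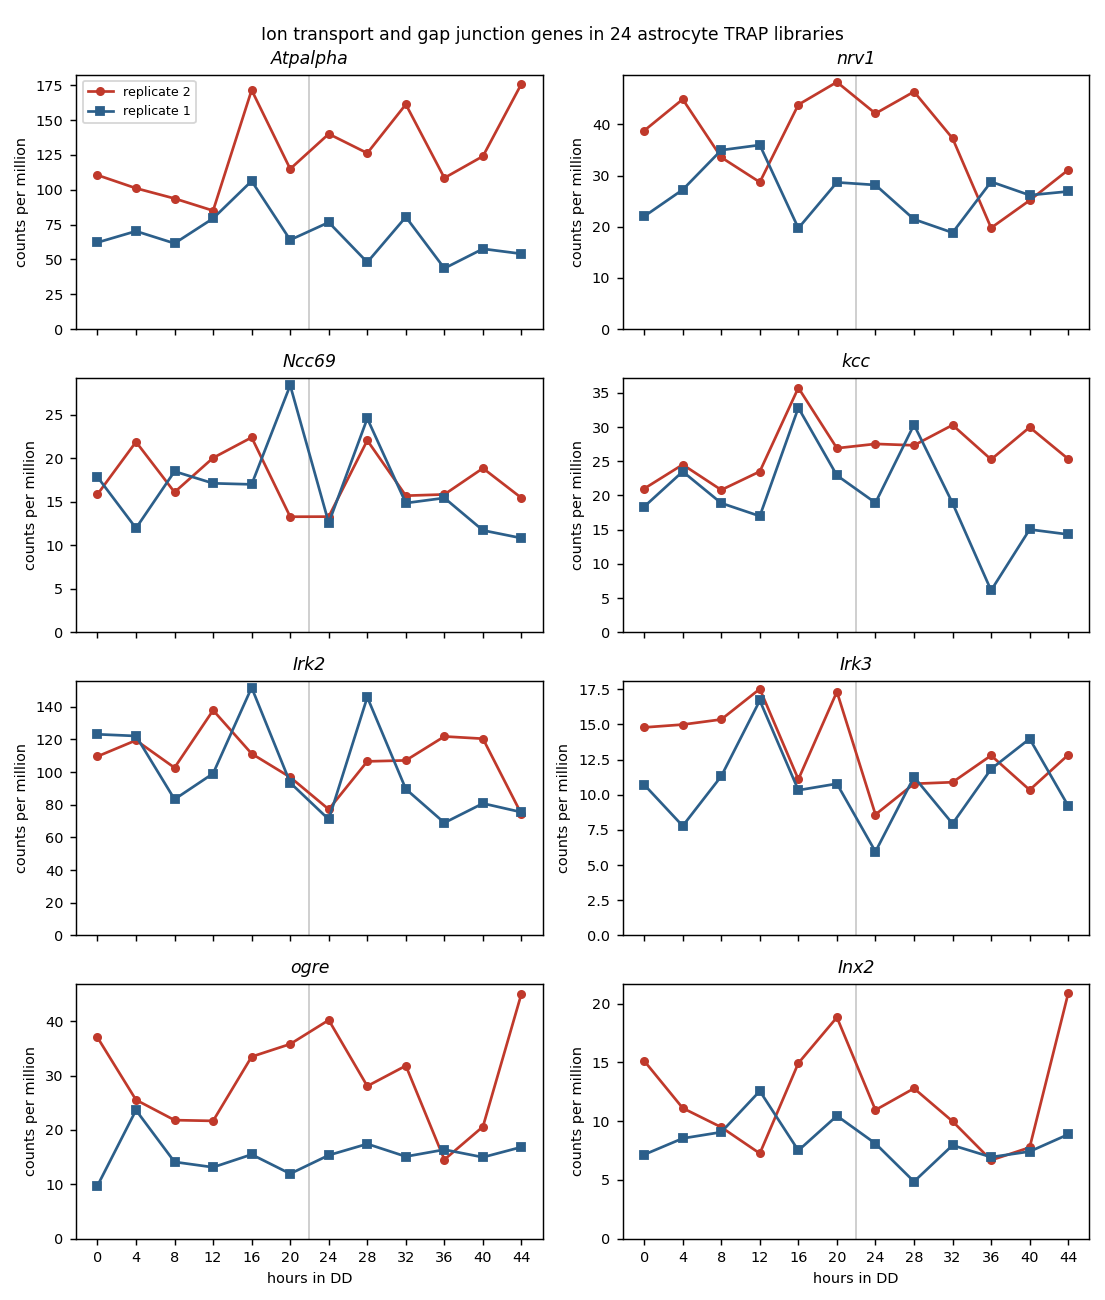
CPM of the 8 genes (vertical axes, starting at 0) against hours in DD for the 12 libraries of replicate 2 (red circles) and the 12 of replicate 1 (blue squares), with a grey line between the first and the second day. Atpalpha is higher in replicate 2 at all 12 time points, while the ranges of Irk2 and Ncc69 overlap fully.

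Whether ribosome association of these RNAs followed the circadian day was asked with 2 tests. JTK_CYCLE, a rank test against cosine curves with periods of 20, 24 and 28 h, called none of the 8 members, against 2.82% of all genes tested (adjusted p under 0.05 over the curves tried and a JTK_CYCLE amplitude above 0.5, in normalized counts). The lowest adjusted p was 0.349 for Inx2, followed by 0.525 for Irk3, and it was 1 for the remaining 6. The edgeR quasi-likelihood test of a 24 h cosine called none of the members either, against 0.33% of the genes. None had an unadjusted p under 0.05, and DESeq2 called none. The lowest was 0.0928 for Inx2 (adjusted p = 0.974).

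The fitted 24 h amplitudes, that is, how far the fitted curve rises over its mid-line in log2 units, were 0.27 ± 0.14 for Inx2, 0.23 ± 0.18 for ogre and 0.20 ± 0.11 for Irk3 (least squares ± SE, n = 24 libraries). The other 5 lay between 0.08 (Ncc69) and 0.14 (nrv1). The median over the 8 members was 0.14, and 0.16 over all genes tested. The upper 95% limits of the amplitudes correspond to peak-to-trough ratios between 1.51 for Ncc69 and 2.29 for ogre, so rhythms up to these sizes lie within the error of the fit. With the replicate as a block the amplitudes were the same but the SE was 0.10 for Atpalpha, against 0.17 without it, and 0.11 for ogre, against 0.18, and the limits were then ratios of 1.51 (Ncc69) to 2.05 (Inx2). The same libraries held a rhythm of the clock repressor per with an amplitude of 1.19 ± 0.10 (adjusted p = 1.07e-06, edgeR) and of tim with 1.77 ± 0.18 (adjusted p = 4.95e-05, edgeR).

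Of the 8 amplitudes, those of the innexins differed most between the replicates. In replicate 2 alone the amplitude was 0.51 ± 0.13 for ogre, with a peak at 22.7 h, and 0.55 ± 0.15 for Inx2, with a peak at 22.2 h. In replicate 1 alone it was 0.13 ± 0.13 for ogre and 0.15 ± 0.14 for Inx2. For nrv1 it was 0.36 ± 0.13 in replicate 2 and 0.09 ± 0.13 in replicate 1, and for Irk2, whose replicate 2 peak fell at 10.7 h, 0.24 ± 0.09 in replicate 2 and 0.13 ± 0.17 in replicate 1. Irk3 and kcc went the other way, with 0.06 ± 0.14 in replicate 2 and 0.34 ± 0.14 in replicate 1 for Irk3, and 0.13 ± 0.09 in replicate 2 and 0.34 ± 0.25 in replicate 1 for kcc. JTK_CYCLE run on replicate 2 alone called ogre (adjusted p = 0.0175) but not Inx2 (adjusted p = 0.0573), 1 of 8 members where 3.66% of all genes were called. On replicate 1 alone it called no member, where 1.75% of all genes were called. After adjustment over all genes the call of ogre did not hold (q = 0.781). The edgeR test of whether the 24 h curves differed between replicates gave an unadjusted p of 0.0187 for Inx2 and 0.0272 for ogre but an adjusted p of 0.985 for both, and it called none of the 9392 genes (287 had an unadjusted p under 0.05; DESeq2 was not run for this test). Inx2 was also called by JTK_CYCLE when only the technical data sets 1 and 3 were used (adjusted p = 0.0376), a setting that leaves out the 28 h library of replicate 1.

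**Figure D2:**
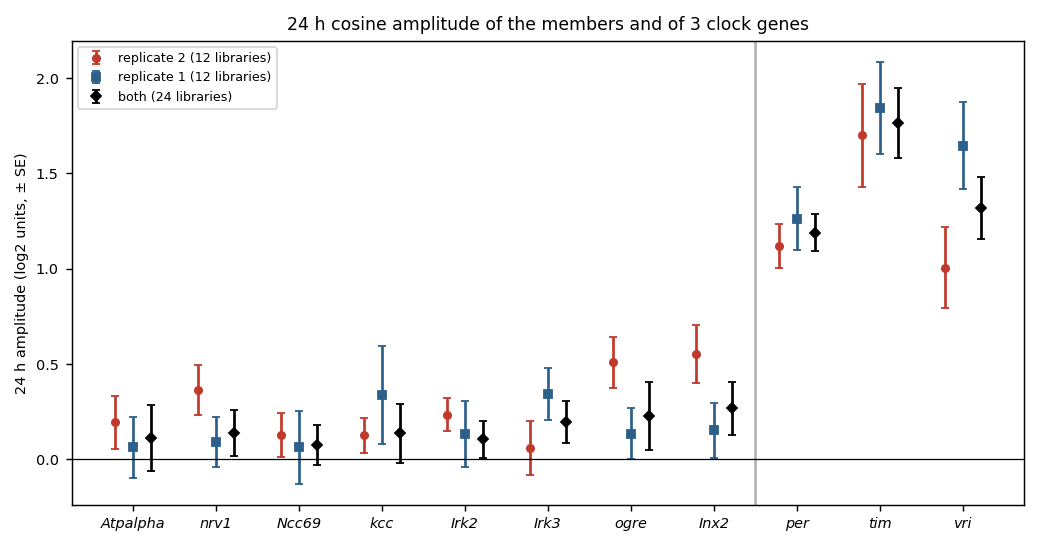
Amplitude of the 24 h cosine (vertical axis, log2 units, bars ± SE) for the 8 members and, right of the grey line, the clock genes per, tim and vri, in replicate 2, in replicate 1 and in both. ogre and Inx2 reach 0.51 and 0.55 in replicate 2 alone and 0.13 and 0.15 in replicate 1 alone, whereas per is at 1.19 in both replicates together.

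Differences of any shape between the 12 time points were tested as well. edgeR called none of the members, against 0.0319% of all genes, and none had an unadjusted p under 0.05. The lowest unadjusted p was 0.178, for Irk2. This test held no replicate term, so differences between the replicates stayed in its spread. With the replicate as a block no member was called either, and the lowest adjusted p was 0.434, for Irk3 (edgeR). DESeq2 called no member.

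Between the second and the first day in DD, Irk3 and Irk2 were the members with the lowest p. Irk3 averaged 10.5 ± 2.29 CPM on the second day and 13.2 ± 3.24 CPM on the first (SD, n = 12 libraries each), and it was lower on the second day in 10 of 12 pairs of libraries 24 h apart, including 6 of 6 in replicate 2. Irk2 averaged 94.9 ± 24.9 CPM on the second day and 113 ± 19.5 CPM on the first, lower in 8 of 12 pairs. Neither difference passed the adjustment. The log2 difference was -0.34 for Irk3 (unadjusted p = 0.0274, adjusted p = 0.299, edgeR) and -0.26 for Irk2 (unadjusted p = 0.0405, adjusted p = 0.327, edgeR). Other potassium channel genes went both ways, with -0.43 for Ork1 and -0.13 for slo, but 0.95 for SK, 0.23 for KCNQ and 0.11 for Task6. Among the marker genes, chp of photoreceptors (-0.38) and Gabat of astrocytes (-0.28) were lower on the second day, and Eaat2 was higher (0.10).

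No member was called between the days, where edgeR called 0% of all genes, 14.3% of genes had an unadjusted p under 0.05 and DESeq2 called 1 gene and no member. The median log2 difference was -0.23 over the members and 0.00 over all genes. Atpalpha had mean log2 differences of 0.32 in replicate 2 (lower on the second day in 1 of 6 pairs) and -0.31 in replicate 1 (lower in 4 of 6 pairs), with an unadjusted p of 0.0187 for the difference between replicates and an adjusted p of 0.330 (edgeR).

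Sodium pump, kcc, Irk3 and innexin RNAs were higher in replicate 2 than in replicate 1. Of the 8 members, 6 were called in the edgeR test of replicate 2 against replicate 1 with the time point as a block, all 6 higher in replicate 2. Under the 8 alternative settings 2 to 5 members were called. Over all genes 31.7% were called, and 16.9% were called as higher in replicate 2. The median log2 difference was 0.47 over the members and -0.01 over all genes, and all 8 members had a positive difference, against 49.3% of all genes. The values of the members share libraries and RNA composition, and no test of the list as a whole was made.

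Atpalpha averaged 126 ± 30.2 CPM in replicate 2 and 67.0 ± 17.1 CPM in replicate 1 (SD, n = 12 each), a log2 difference of 0.92 (adjusted p = 0.000203). ogre was higher in replicate 2 at 11 of 12 time points, with a log2 difference of 0.91 (adjusted p = 0.0012), and averaged 29.6 ± 9.14 CPM in replicate 2 and 15.3 ± 3.39 CPM in replicate 1. These 2 genes were called under all 8 alternative settings, with log2 differences between 0.88 and 0.95.

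The other called members were closer to the threshold. kcc had a log2 difference of 0.50 (adjusted p = 0.0238, higher in replicate 2 at 11 of 12 time points), Inx2 of 0.50 (adjusted p = 0.0414, 10 of 12), nrv1 of 0.44 (adjusted p = 0.0404, 8 of 12) and Irk3 of 0.31 (adjusted p = 0.0498, 10 of 12). The 28 h library of replicate 2 had 46.4 CPM of nrv1 (rank 2 of 12) and 12.8 CPM of Inx2 (rank 5 of 12). Without it the adjusted p was 0.0869 for nrv1 and 0.0888 for Inx2, and without the 16 h library of replicate 1 it was 0.0796 for nrv1, 0.0778 for Inx2 and 0.0529 for Irk3. With data sets 1 and 3 alone the adjusted p was 0.0598 for kcc, 0.0880 for Irk3, 0.131 for nrv1 and 0.226 for Inx2. Irk2, with a log2 difference of 0.12 (adjusted p = 0.454), and Ncc69, with 0.11 (adjusted p = 0.618), were not called.

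**Figure D3:**
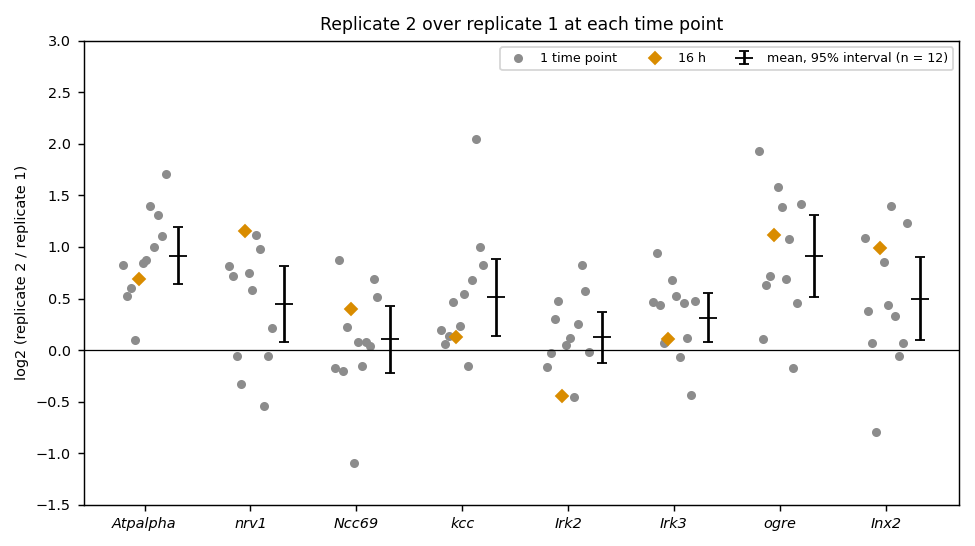
Log2 ratio of replicate 2 to replicate 1 for each member (vertical axis), with 1 grey point per time point, the 16 h time point as an orange diamond, and the mean with its 95% interval in black (n = 12 time points). All 12 points of Atpalpha lie above 0, and those of Irk2 and Ncc69 lie on both sides of it.

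Apart from the 16 h library of replicate 1, the numbers of the deposited tables differ between the replicates as the crosses do, so cross and number cannot be told apart for the other 11 time points. At 16 h replicate 2 had 172 CPM of Atpalpha, 35.7 CPM of kcc, 33.5 CPM of ogre and 14.9 CPM of Inx2. In the 16 h library of replicate 1, Atpalpha (106 CPM), kcc (32.8 CPM) and Irk2 (152 CPM) had their highest values of replicate 1, each at rank 1 of 12. nrv1 ranked 11 of 12 there (19.7 CPM), Inx2 and Irk3 ranked 8 (7.497 and 10.3 CPM), Ncc69 ranked 6 (17.0 CPM) and ogre ranked 5 (15.5 CPM). The share of alignments that were not unique, which is left out of the counts, was 3.92% to 7.33% in replicate 2 except for its 28 h library (47.0%), and 21.7% to 36.9% in replicate 1 except for its 16 h library (9.47%). Its part in the difference was not tested.

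Some genes that mark other cells were also called between the replicates. Eaat2, known from ensheathing glia, was higher in replicate 2 (log2 difference 0.50, adjusted p = 0.00136, edgeR). The sarcomere gene zormin was higher too (0.60, adjusted p = 0.0032), but Strn-Mlck, the other muscle gene tested, was not called (-0.11, adjusted p = 0.655). Of the photoreceptor genes, chp was higher (0.37, adjusted p = 0.034) and Arr1 was lower (-0.40, adjusted p = 0.0204). The astrocyte markers e and Gabat were both called as lower in replicate 2, with sums of 75.8 to 182 CPM in replicate 2 and 115 to 215 CPM in replicate 1. The 6 neuronal markers that could be matched (nAChRalpha5, mAChR-B, dpr1, dpr6, dpr9 and Frq1) summed to 4.36 to 37.3 CPM in replicate 2 (median 18.3) and 6.66 to 17.4 CPM in replicate 1 (median 9.32). The 5 of them that were tested had positive differences, and none was called. None of these markers was at 0 in all libraries, and their part in the members' differences was not tested. The most used astrocyte and glial markers, alrm, Eaat1, Gat and repo, could not be paired with an identifier and were not analysed here.

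Atpalpha is also abundant in neurons in general, and the part of neuronal RNA in its values was not tested. The 5 tested neuronal markers averaged only 23.6 (dpr1) to 61.7 (mAChR-B) counts per library. The neuronal markers elav, nSyb, brp, Syt1 and para could not be paired with an identifier. Across the libraries, after centring within each replicate, Atpalpha correlated with all 5 tested neuronal markers at r between 0.33 (dpr6) and 0.67 (dpr9), and with e and Gabat at -0.43 to -0.28 (n = 24 libraries, which share depth and RNA composition). For Frq1 r was 0.88 in replicate 2 and -0.15 in replicate 1, and for Gabat it was -0.80 in replicate 2 and 0.22 in replicate 1. Over all libraries the r of Atpalpha with the photoreceptor gene eys, 0.72, was above those with the neuronal markers. It was 0.84 in replicate 1 and 0.57 in replicate 2, where dpr1, dpr9 and Frq1 were higher (0.64 to 0.88). With the other 5 photoreceptor genes Atpalpha had r between -0.07 (Arr1) and 0.22 (Rh6). The replicates differed in sign for some of them. Rh6 was at 0.63 in replicate 2 and -0.10 in replicate 1, and chp at -0.59 in replicate 2 and 0.49 in replicate 1. kcc also had a positive r with all 5 neuronal markers, from 0.01 (Frq1, 0.57 in replicate 2 and -0.39 in replicate 1) to 0.62 (mAChR-B). In replicate 1 its r with dpr1 was negative as well (-0.06). The positive sign was not particular to neuronal markers, as kcc had r of 0.13 to 0.65 with the 6 photoreceptor genes and 0.54 with Eaat2. ogre had r between -0.18 and 0.36 with the neuronal markers, and of -0.51 with Gabat and -0.35 with e. Inx2 had r between -0.06 (mAChR-B) and 0.57 (Frq1, 0.63 in replicate 2 and 0.41 in replicate 1) with the neuronal markers. Photoreceptor genes were present in every library, with 6 of them (Arr1, inaD, Rh5, Rh6, chp and eys) summing to 1079 to 1807 CPM in replicate 2 and 1025 to 2286 CPM in replicate 1. The gene most like Irk2 among all genes tested was one of these, chp, the photoreceptor cell surface protein chaoptin. Its r with Irk2 was 0.89 over 24 libraries, 0.91 in replicate 2 and 0.88 in replicate 1. The other 5 photoreceptor genes had r between 0.09 (Arr1) and 0.65 (inaD) with Irk2. For Arr1, Rh6 and eys r was negative in replicate 2 (-0.50 to -0.17) and positive in replicate 1 (0.31 to 0.51), and for inaD and Rh5 it was positive in both. Irk2 also had a positive r with both astrocyte markers and with the muscle gene zormin (0.59). It was 0.58 with Gabat (0.77 in replicate 2 and 0.55 in replicate 1). With e it was 0.38 (0.73 in replicate 2 and 0.23 in replicate 1). With Tret1-1, known from surface glia, r was -0.28, and with the neuronal markers -0.40 (Frq1) to 0.30 (mAChR-B). The genes most like the other 7 members, at r between 0.74 (Irk3) and 0.92 (Atpalpha), have no symbol in the tables used here.

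Among themselves the members did not move as a block. Of 28 pairs, 16 had a positive r and 12 a negative one, from -0.44 (Irk2 and Inx2) to 0.64 (nrv1 and Inx2), with a median of 0.05 (log2 CPM centred within each replicate, 24 libraries, a description without a test). In 9 pairs r was positive in both replicates, in 8 it was negative in both, and in 11 the sign differed. nrv1 and Inx2 were alike in both, with r of 0.65 in replicate 2 and 0.64 in replicate 1 (Spearman's rho 0.64 over all 24), and 0.50 over all without the 2 libraries farthest from the median of nrv1. Left out within each replicate, the 2 farthest gave 0.36 in replicate 2 and 0.79 in replicate 1. Both genes also had a positive r with Tret1-1, the surface glia gene. It was 0.71 for nrv1 (0.77 in replicate 2 and 0.64 in replicate 1). For Inx2 it was 0.56 (0.68 in replicate 2 and 0.41 in replicate 1). The part of surface glia in the likeness of nrv1 and Inx2 was not tested. The subunits of the pump were not alike, with r of 0.02 between Atpalpha and nrv1. Atpalpha and kcc had r of 0.55 (0.71 in replicate 2 and 0.56 in replicate 1), but in replicate 1 r was -0.20 without the 2 libraries farthest from the median of Atpalpha.

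**Figure D4:**
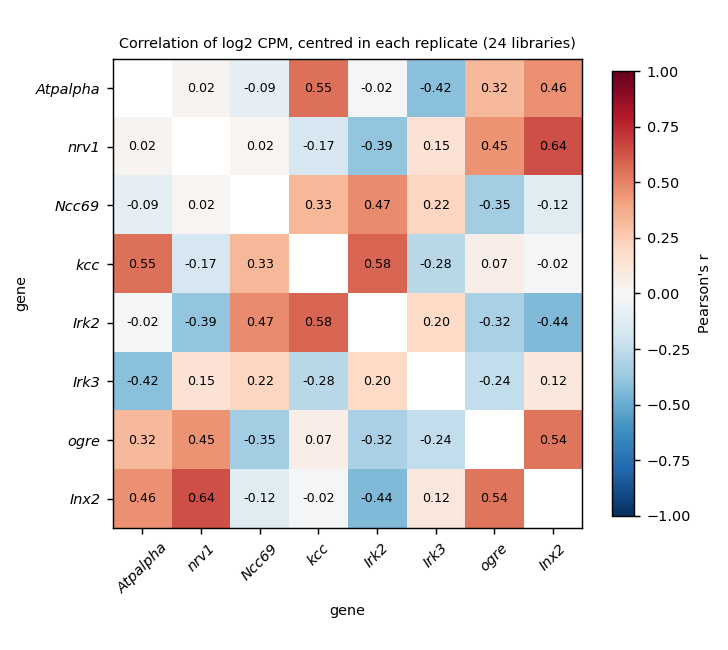
Pearson's r between the members' log2 CPM after centring within each replicate (24 libraries), on a color scale from -1 (blue) to 1 (red). The highest value is 0.64 for nrv1 with Inx2 and the lowest -0.44 for Irk2 with Inx2.

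ogre and Inx2, the pair that can share channels, had r of 0.54 over all libraries. Within replicate 2 it was 0.86 (rho 0.85) and 0.75 without the 2 libraries farthest from the median of ogre. Within replicate 1 it was -0.23 (rho -0.32) and -0.78 without the 2 farthest libraries. The difference between the replicates' correlations was not tested. Irk2 ran opposite to both in replicate 2, at -0.74 with ogre and -0.64 with Inx2, and stood at 0.04 with ogre and -0.32 with Inx2 in replicate 1.

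**Figure D5:**
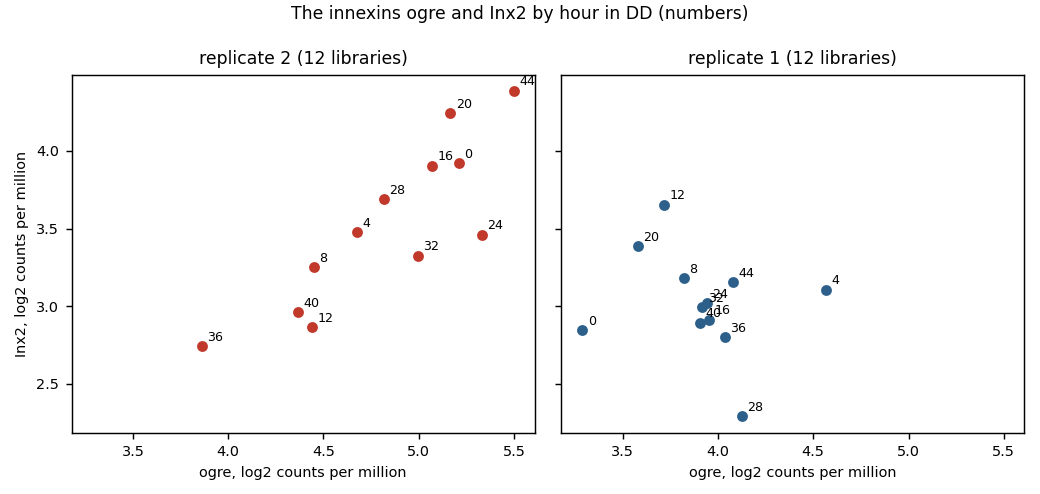
Inx2 against ogre (log2 CPM on both axes) in the 12 libraries of replicate 2 (left) and the 12 of replicate 1 (right), with the hour in DD beside each point. In replicate 2 the 36 h library is at the lower left and the 44 h library at the upper right (r of 0.86), and in replicate 1 the points do not rise together (r of -0.23).

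Other genes of ion handling were looked at beside the members. Of 35 such genes listed, 14 could be paired with an identifier, and nrv2, nrv3, Irk1, Inx3, Inx7 and fray, the closest relatives or partners of members, were not among them and were not analysed here. None of the 14 was called by the 24 h cosine, time point or day tests (edgeR). Nha2, a sodium-proton antiporter, was the only one that JTK_CYCLE called (adjusted p = 0.0201 over the curves), a call that did not hold after adjustment over all genes (q = 0.999). Its 24 h cosine had an amplitude of 0.29 ± 0.08 log2 units. In the test of replicate 2 against replicate 1, 4 of the 14 were called higher in replicate 2 and 1 lower, where 31.7% of all genes were called. Those higher were the chloride channel gene ClC-a (log2 difference 0.30, adjusted p = 0.0365), the potassium-dependent sodium-calcium exchanger gene zyd of cortex glia (0.34, adjusted p = 0.015), and the potassium channel genes SK (1.59, adjusted p = 0.00117) and Task6 (0.79, adjusted p = 0.0174). Nha2 was lower (-0.37, adjusted p = 0.0159).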

How the data were processed

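Ribosome-bound RNA of 24 libraries was sequenced as 48 data sets, and the authors deposited raw HTSeq counts per gene for each, aligned with Tophat to Release 6 (per the submitters' processing notes TopHat2 2.0.9, SAMtools 0.1.19 and HTSeq 0.6.1). The authors then updated the gene identifiers from FlyBase. Counting mode and strand setting are not given in the sources used here. Rows that name no gene stayed out of library sizes and tests. Besides the alignments that were not unique, these were ambiguous reads (3.77% to 6.52% of the tallies) and reads on no feature (0.511% to 11.7%). Technical data sets were added up. For replicate 1 at 28 h data set 1 was nearly empty, so only data set 2 informs that library, and in the other 23 libraries the sets differed by 1.10 to 1.79 times counting noise (chi-square per degree of freedom).

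Genes averaging 20 or more counts per library were tested with edgeR 4.0.16 in R 4.3.3 (TMM, glmQLFit, glmQLFTest, Benjamini-Hochberg adjustment over 9392 genes), for a 24 h cosine and sine, 12 time points, second against first day, and replicate 2 against replicate 1 with the time point as a block. JTK_CYCLE was written anew in Python 3.11.15 and run on quantile normalized counts (18 curves, Bonferroni over the curves within a gene). CPM are TMM-scaled, and log2 values carry a pseudocount of 0.5. Alternatives were other scaling and filters, single technical data sets, left-out libraries or replicates, a replicate block and DESeq2 1.42.0. edgeR and JTK_CYCLE were run on simulated counts with known changes. For the rhythm, time point and day tests these counts held no replicate difference, and the changes were larger than the members' fitted 24 h amplitudes. The simulation therefore does not give the power of the tests in these data. Libraries of different hours are separate pools of heads, and p-values measure the spread between these libraries. In the test of replicate 2 against replicate 1 the hours are the units, so its p-values do not measure the spread between crosses.

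All members are named, with the gene of highest r to each where it has a symbol, and listed ion genes where called or related to a member. Members, gene lists and tests were chosen with earlier results of these data known. Identifiers were paired with symbols through the study's tables, and 9 ion genes and most markers were added by which names could be paired. Planned levels per kilobase, motifs and protein comparisons were not made, as no transcript lengths or sequences were used here.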

Additional observations from a re-analysis of the deposited data

How the results depend on the processing

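Of 368 member values recomputed under the alternatives, 342 kept their direction and their side of the threshold, 18 lost a call, 2 gained one and 6 turned direction. Atpalpha and ogre stayed called between the replicates throughout. The number of members called between the replicates, 6 in all libraries, was 2 to 5 over the 8 alternatives, so none of them kept all 6. It was 3 with a filter of at least 1 count on average, 3 without the 16 h library of replicate 1 and 2 with data sets 1 and 3 only (2155 to 3237 genes called over the alternatives, 2974 in all libraries). Irk3 lost its call under all but 1 of the 8 alternatives, with an adjusted p between 0.0495 and 0.149 over the 8, and the cause was not tested. JTK_CYCLE called 1 member with data sets 1 and 3 only and 1 without replicate 1, and 164 to 344 genes when a replicate was left out, against 265. With a replicate left out, or without the 28 h library of replicate 2, the 24 h cosine called 1 to 33 genes, against 31, and no member. That cosine called 18 genes with data sets 1 and 3 only and 81 with DESeq2. DESeq2 called 650 genes between time points, against 3, none of them a member. Between the days, 1 gene was called with data sets 1 and 3 only and 1 with DESeq2, against 0. The day difference of ogre, 0.04 log2 units, was -0.00089 with the lower count filter, -0.0056 without the 28 h library of replicate 2 and -0.0030 without the 16 h library of replicate 1, and -0.023 to 0.17 when a replicate was left out. That of kcc, -0.08, was -0.48 to 0.14 and that of Atpalpha, 0.10, was -0.32 to 0.33 when a replicate was left out. None of these day differences was called.

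With a replicate block, JTK_CYCLE called 432 genes and the 24 h cosine 55, with 0 members in either, and 4 genes differed between time points. The labels do not say that a number pairs libraries, though by the study's methods the replicates came from independent crosses. The deviations of same-numbered libraries from their time point means correlated at -0.74 to 0.76 (median 0.20, 66 pairs of time points, 43 above 0.1). The rhythm, time point and day tests reported were run without the block. Differences between the replicates, for which 31.7% of genes were called, thus stayed in the spread of these tests. The levels per kilobase and their alternatives were not run. Irk3 and Inx2, with 210.5 and 175 counts per library on average, had the lowest counts of the members.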
